A study of Bos indicus with 6 samples.

Results

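The genes described are the endothelins EDN1, EDN2 and EDN3, the converting enzyme ECE1, the endothelin receptors EDNRA and EDNRB, and the nitric oxide synthases NOS1, NOS2 and NOS3. Their rows were found by symbol in the table of isthmus genes, and 8 of the 24616 rows carry one of the 9 symbols. Values were not used to pick rows, but the genes were chosen with earlier results of these data known. No row carries the symbol NOS2, so the inducible synthase was not analysed here. Each of the other genes has a single row, named by an Ensembl identifier.

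Endothelins are short peptides released from larger precursors, first by furin-type proteases and then by endothelin-converting enzyme at the cell membrane. The A receptor, encoded by EDNRA, couples in smooth muscle to phospholipase C, calcium release and contraction. The B receptor, encoded by EDNRB, prompts endothelial cells to release nitric oxide, and it also clears the peptide and can contract muscle. Nitric oxide synthases make nitric oxide from arginine, and the gas relaxes smooth muscle through soluble guanylate cyclase, cyclic GMP and the kinase PRKG1. NOS1 is the neuronal and NOS3 the endothelial enzyme. In the oviduct, the muscular wall of the isthmus moves sperm and the early embryo, and endothelins and nitric oxide are known as agents that contract and relax it.

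The tissue was full-thickness isthmus, on the side of the corpus luteum, of 6 healthy multiparous Nelore (Bos indicus) cows, with 1 RNA-seq library per cow. All cows were pre-synchronized with a prostaglandin F2α analog (PGF) and a GnRH agonist, received a progesterone-releasing device together with estradiol benzoate, were given PGF again at and after device removal, and ovulated after GnRH. The 3 LF/LCL (large follicle, large corpus luteum) cows also received PGF when the device was inserted, and their device came out 42 h before GnRH. The 3 SF/SCL (small follicle, small corpus luteum) cows did not receive that PGF injection, and their interval was 30 h. Tissue was taken on day 4. Only the highest-ranked LF/LCL animals and the lowest-ranked SF/SCL animals were sequenced, so they are extremes of their groups. The question was how the hormonal milieu around ovulation changes gene expression in the oviduct.

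Libraries held from 23899117 to 34193164 reads counted on genes. Values are normalized counts, that is reads divided by the size factor of the library, and differences were tested with limma on log2(value + 1) over the 15387 genes that passed a filter on low and variable values. All 8 genes passed it. Log2 fold changes are SF/SCL over LF/LCL, so a negative value means higher in LF/LCL, and the pseudocount understates changes of low genes. SF/SCL cow 489215 stood apart. Its value was the lowest or the highest of the 6 for 72.4% of the genes tested, against 15.6% to 38.0% for the other libraries, and leaving it out lowered the median residual SD on the log2 scale from 0.435 to 0.184. The results of the 8 genes are therefore given with and without this cow. Most markers of smooth muscle, epithelium, ciliated cells and endothelium had counts in every library. The ciliary gene PIFO is listed at 0 throughout, and ACTG2, MYOCD, CDH1 and PECAM1 have no row under those symbols and were not analysed here.

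In these libraries EDNRA was the gene of the system that separated the groups, with about 2.17-fold higher values in LF/LCL and no overlap between cows. EDNRB and ECE1 were higher in SF/SCL cows 856 and 97 than in every LF/LCL cow, but were lowest of all in cow 489215. The ligand EDN1 had nearly the same value in 5 of the 6 cows. NOS3 was lower in SF/SCL cows 856 and 97 than in the LF/LCL cows, whereas cow 489215 lay within the LF/LCL range. With all 6 libraries, limma called 0 of the 8 genes at a Benjamini-Hochberg adjusted p-value under 0.05, where 0% of all genes tested were called. The unadjusted p-value was under 0.05 for 1 of them, EDNRA, against 8.66% of all genes tested. edgeR's quasi-likelihood test on recovered reads likewise called 0 after adjustment and had 1 under 0.05 before it, against 8.49% of all genes. Only for EDNRA among the 8 did the groups not overlap, which held for 18.1% of all genes tested, 8.60% higher in LF/LCL and 9.51% in SF/SCL.

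**Figure D1:**
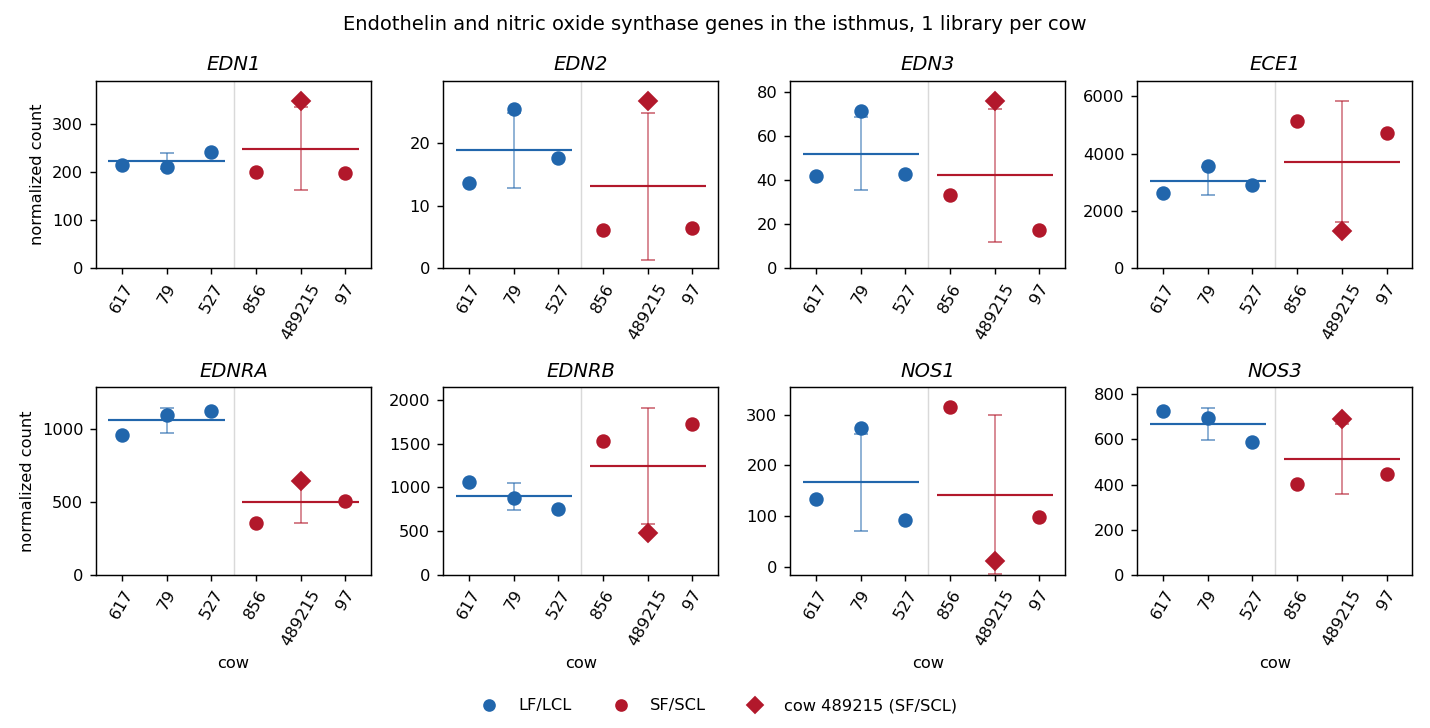
Normalized counts of the 8 genes (y axes, each panel on its own scale) in the 6 cows (x axis), with blue for LF/LCL, red for SF/SCL and a diamond for cow 489215, and with horizontal lines for group means and bars for the SD (n = 3). EDNRA is the panel in which the groups do not overlap, from 954.6 to 1118 against 354 to 640.4, and cow 489215 is highest for the endothelins and lowest for ECE1, EDNRB and NOS1.

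EDN1 (ENSBTAG00000008096) encodes endothelin 1, the main vasoconstrictor of the family. It had normalized counts of 215.6, 211 and 242 in LF/LCL cows 617, 79 and 527. In SF/SCL cows 856, 489215 and 97 the counts were 200.5, 347 and 198. The groups overlapped, with cow 489215 above every other cow and cows 856 and 97 just below the LF/LCL range. The log2 fold change was 0.11 (standard error, SE, 0.31, limma adjusted p = 0.949), with a 95% interval from -0.63 to 0.85. Without cow 489215 the direction turned, to -0.16 (interval -0.58 to 0.26, limma adjusted p = 0.569). This narrower interval rests on leaving out the cow with the highest value, and the one with all 6 libraries reached 0.85. By quantitative PCR in the isthmus of a larger set of cows, the study reported EDN1 as higher in SF/SCL. In the cows sequenced here that PCR difference was smaller.

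EDN2 (ENSBTAG00000021434), a close relative of endothelin 1 known from the ovulating follicle, rested on few reads. The LF/LCL cows 617, 79 and 527 had 13, 27 and 20 reads, or normalized counts of 13.6, 25.3 and 17.6. The SF/SCL cows 856, 489215 and 97 had 8, 20 and 6 reads, or 6.08, 26.6 and 6.50. Cow 489215 was the highest and the other SF/SCL cows the lowest. The exact 95% Poisson interval for the 6 reads of cow 97 ran from 2.20 to 13.1 and for the 13 reads of cow 617 from 6.92 to 22.2, so these libraries could not be told apart by counting error alone. Such intervals cover counting error only. The log2 fold change was -0.76 (SE 0.66, limma adjusted p = 0.838), and -1.40 without cow 489215 (SE 0.49, limma adjusted p = 0.0995). It was -0.42 without cow 856 and -0.46 without cow 97.

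EDN3 (ENSBTAG00000012109) encodes endothelin 3, which binds the B receptor with higher affinity than the A receptor and acts in neural crest cells. Its normalized counts were 41.9, 71.3 and 43.0 in LF/LCL cows 617, 79 and 527. They were 33.4, 75.9 and 17.3 in SF/SCL cows 856, 489215 and 97. The order of the cows resembled that of EDN2, with cow 489215 first, cow 79 second and SF/SCL cows 856 and 97 at the bottom. Between groups the log2 fold change was -0.50 (SE 0.60, limma adjusted p = 0.881), and -1.04 without cow 489215 (limma adjusted p = 0.159). It was -0.25 without cow 79 and -0.0014 without cow 97.

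ECE1 (ENSBTAG00000002977), the metalloprotease that cuts big endothelin to the active peptide, had normalized counts of 2626, 3569.6 and 2888 in LF/LCL cows 617, 79 and 527. SF/SCL cows 856 and 97 had 5127 and 4731, and cow 489215 had 1287. The LF/LCL cows thus lay between the SF/SCL cows, and the SD of the SF/SCL group, 2112 around a mean of 3715, exceeded the distance to the LF/LCL mean of 3028 ± 487 (SD, n = 3 each). The log2 fold change was 0.07 (SE 0.54, limma adjusted p = 0.979). Without cow 489215 it was 0.71 (SE 0.14, interval 0.37 to 1.05, limma adjusted p = 0.0202), and without SF/SCL cow 856 or 97 it was -0.28 or -0.22. On recovered reads of all 6 libraries, edgeR and DESeq2 gave 0.28 to 0.30.

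EDNRA (ENSBTAG00000013674), the contractile A receptor, had normalized counts of 954.6, 1094 and 1118 in LF/LCL cows 617, 79 and 527. In SF/SCL cows 856, 489215 and 97 the counts were 354, 640.4 and 505. All LF/LCL cows were above all SF/SCL cows, and the LF/LCL cows differed by 1.17-fold at most. The means were 1056 ± 88.4 and 499.8 ± 143 (SD, n = 3 each). Between groups the log2 fold change was -1.12 (SE 0.27, interval -1.75 to -0.48), with an unadjusted p-value of 0.00468 and an limma adjusted p = 0.381. The direction held with any single cow omitted, with log2 fold changes from -1.31 to -0.89. Without cow 489215 EDNRA passed the adjusted threshold (limma adjusted p = 0.00657). With any other single cow left out it did not (limma adjusted p from 0.699 to 0.999). EDNRA also passed in the DESeq2 Wald test on the recovered reads of all 6 libraries (log2 fold change -1.08, adjusted p = 0.0173 from DESeq2). That test called 2.70% of all genes, 1.35% higher in LF/LCL and 1.35% in SF/SCL.

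EDNRB (ENSBTAG00000005299), the B receptor, had normalized counts of 1060.3, 873 and 755 in LF/LCL cows 617, 79 and 527. In SF/SCL cows 856 and 97 it had 1529 and 1722, and in cow 489215 it had 483. Again the LF/LCL cows lay between the SF/SCL cows, with cow 489215 the lowest of the 6. The means were 896 ± 154 and 1245 ± 667 (SD, n = 3 each), and the log2 fold change was 0.29 (SE 0.50, limma adjusted p = 0.911). Without cow 489215 it was 0.87 (SE 0.16, interval 0.48 to 1.25, limma adjusted p = 0.0163). Without cow 97 it was -0.046. On recovered reads of all 6 libraries, edgeR and DESeq2 gave 0.46 to 0.48.

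**Figure D2:**
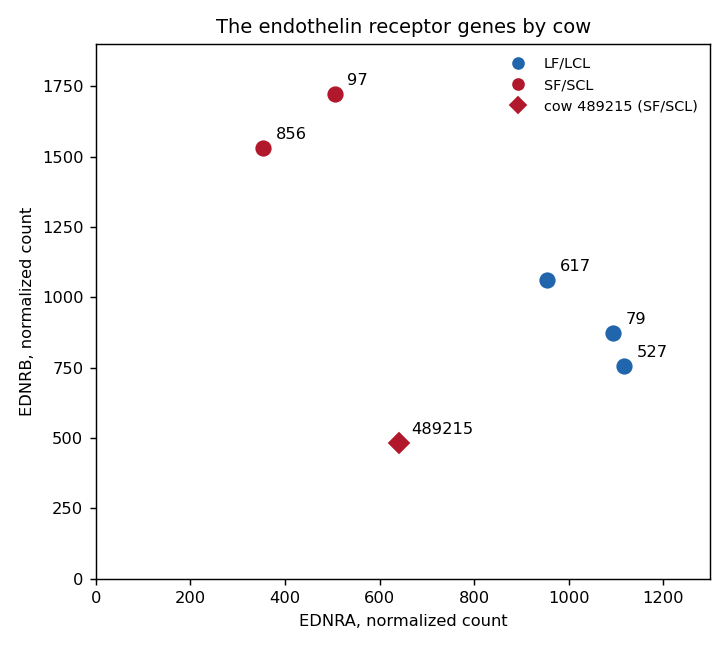
Normalized count of EDNRA (x axis) against that of EDNRB (y axis), both linear, with 1 point per cow. LF/LCL cows (blue) lie at high EDNRA, SF/SCL cows 856 and 97 at low EDNRA and high EDNRB, and SF/SCL cow 489215 (diamond) at 640.4 and 483.

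The receptor genes were also compared as a ratio within each library, which does not depend on how libraries are scaled. It is used to compare cows and not the level of the receptors, since transcript lengths were not used here. The log2 ratio of EDNRA to EDNRB was -0.15, 0.33 and 0.57 in LF/LCL cows 617, 79 and 527. In SF/SCL cows 856, 489215 and 97 it was -2.11, 0.41 and -1.77. Cow 489215 lay inside the LF/LCL range, and the other SF/SCL cows far below it. The mean difference was -1.40 (two-sided exact permutation test, p = 0.3, where the 10 possible divisions allow no p below 0.1). Without cow 489215 it was -2.18 (p = 0.1 by the same exact permutation test, the smallest that these 5 cows allow).

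NOS1 (ENSBTAG00000002023), the synthase of nitrergic nerves and some epithelia, was the most variable of the 8, with a 26.4-fold span between cows. LF/LCL cows 617, 79 and 527 had normalized counts of 133, 274 and 92.2. SF/SCL cows 856, 489215 and 97 had 316, 11.98 and 98.6. Cow 489215 held 9 reads of this gene, with an exact 95% Poisson interval of 4.12 to 17.1, far below the 91 reads of cow 97, the next lowest in reads. Cow 97 lay within the LF/LCL range and cow 856 above it. The log2 fold change of -1.02 (SE 1.15, limma adjusted p = 0.873) became 0.24 without cow 489215 (limma adjusted p = 0.822). The interval with all 6 libraries, -3.78 to 1.74, included large differences in either direction. On recovered reads of all 6 libraries, edgeR and DESeq2 gave -0.23 to -0.21. The 7 neuronal markers with a row, of 8, summed to 680 to 1253 in LF/LCL, 747 and 765 in cows 856 and 97, and 1566 in cow 489215, mostly through TUBB3. Single neuronal genes varied more, with SNAP25 from 49.7 to 363 and ELAVL4 from 2.09 to 52.7, while NEFL was at or near 0. The part of nerve content in the NOS1 values was not tested.

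NOS3 (ENSBTAG00000017680), the endothelial synthase, had normalized counts of 725, 693.6 and 587.6 in LF/LCL cows 617, 79 and 527. SF/SCL cows 856, 489215 and 97 had 402, 688 and 449. Cows 856 and 97 were below every LF/LCL cow, and cow 489215 was within the LF/LCL range. The log2 fold change was -0.42 (SE 0.27, interval -1.06 to 0.22, limma adjusted p = 0.758), and without cow 489215 it was -0.65 (SE 0.14, limma adjusted p = 0.0279).

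**Figure D3:**
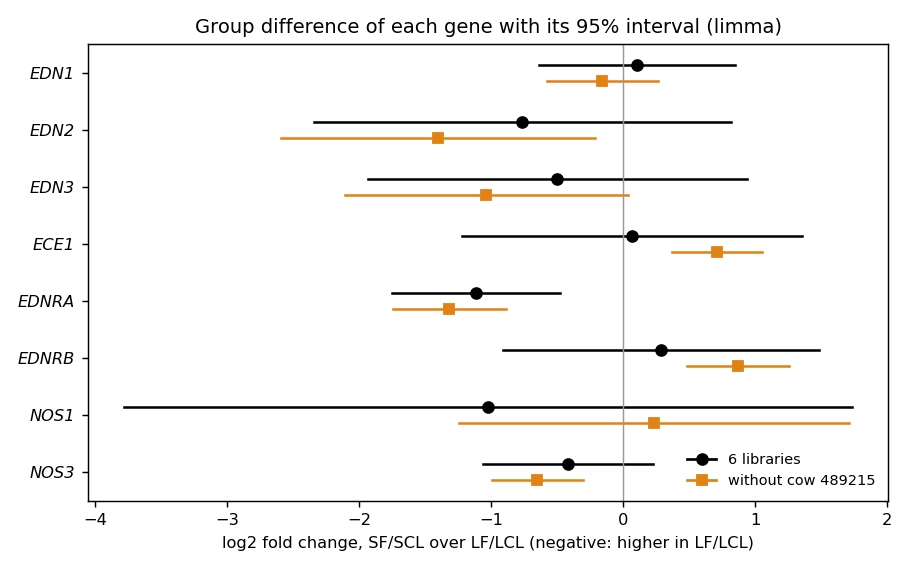
Log2 fold change of each gene (x axis, SF/SCL over LF/LCL) with its 95% interval from limma, in black for the 6 libraries and in orange without cow 489215. The EDNRA interval with all 6 libraries, -1.75 to -0.48, does not reach 0, whereas the others do, and the intervals of EDN2, ECE1, EDNRB and NOS3 leave 0 only without cow 489215.

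Without cow 489215, which leaves 2 SF/SCL cows, 4 of the 8 genes passed the adjusted threshold in limma. EDNRA and NOS3 were the ones with higher values in LF/LCL, ECE1 and EDNRB those in SF/SCL. In that fit 18.2% of all genes tested were called, of which 7.92% favoured LF/LCL and 10.3% SF/SCL. The 5 cows separated by group for 7 of the 8 genes, all but NOS1, where the share over all genes was 52.0%. Of these, 5 were higher in LF/LCL (25.0% of all genes) and 2 higher in SF/SCL (26.9%). Cow 489215 was the highest of the 6 for EDN1, EDN2 and EDN3 and the lowest for ECE1, EDNRB and NOS1. Over all genes tested it was the highest for 36.7% and the lowest for 35.7%, which is close to the share of 3 in 8 genes.

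Among the 8 genes, the closest profiles over the 6 libraries were those of EDNRB and ECE1, measured as the root mean square difference of the log2 values after centring each gene (0.27). EDN1 and NOS3 followed (0.31), then EDN2 and EDN3 (0.34). Among the 13351 other named genes with a mean of at least 15 that passed the filter, those closest to EDNRA were EMILIN1 (0.0859), an elastic fibre glycoprotein, MYOC (0.12) and COL1A1 (0.123), a chain of type I collagen. Closest to EDNRB were CCDC114 (0.0841), a gene of the ciliary dynein docking complex, C15orf39 (0.0928) and PGBD5 (0.106). For ECE1 they were ZNF75A (0.0728), NYAP1 (0.0749) and FAM211A (0.0835). For NOS3 they were ST3GAL-IV (0.0598), FAM13C (0.0667) and SERPINH1 (0.0764), the collagen chaperone. EDN1, which varied little, had COMMD4 (0.0271), TMEM101 (0.0383) and FAM86A (0.0391). The nearest genes were farther for EDN3, with ZNF300 (0.125), CALCRL (0.128) and MGARP (0.139), and for EDN2, with MPND (0.154), GLRX (0.186) and CRISPLD1 (0.207). For NOS1 even the nearest, SYT16, XYLT1 and NFATC2, were 0.343, 0.391 and 0.452 away. With 6 libraries and 1 that stands apart, these distances describe the profiles only.

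In whole tissue, fewer cells of a type and less RNA per cell cannot be told apart, so the markers of the cell types in the wall are given beside these genes. The summed normalized count of the 5 fibroblast markers with a row, of 6, was 287776 to 356044 in LF/LCL and 146894 to 204688 in SF/SCL, without overlap, like EDNRA. Singly, LUM, COL1A1 and COL3A1 did not overlap between the groups, whereas PDGFRA and DCN did, through cow 489215. The 8 smooth muscle markers with a row summed to 722172 to 845718 in LF/LCL, to 330677 and 395326 in SF/SCL cows 856 and 97, and to 1222550 in cow 489215. Pericyte markers, of which all 6 had a row, were at 11826 to 13509.8 in LF/LCL and 5665 to 9439 in SF/SCL. With all 6 libraries limma called 0 genes of any marker list at the adjusted threshold. Unadjusted p-values were below 0.05 for 4 of 5 fibroblast genes, 1 of 8 smooth muscle genes and 3 of 6 pericyte genes, all higher in LF/LCL, as for EDNRA. Without cow 489215, the fit in which EDNRA passed the adjusted threshold also called 5 of 5 fibroblast genes, 7 of 8 smooth muscle genes and 3 of 6 pericyte genes, again higher in LF/LCL. The pericyte gene CSPG4 went the other way (log2 fold change 0.13, and 0.30 without cow 489215), and NOTCH3 had -0.59, and 0.06 without that cow. RGS5 is counted both here and among the receptor coupling genes below. The part of these cells in the EDNRA difference was not tested.

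The 11 endothelial markers with a row summed to 15577 to 20066 in LF/LCL, 12766 and 13568 in cows 856 and 97, and 19162 in cow 489215. The sums had the same order as NOS3 between these sets of cows, but single markers differed in cow 489215. CDH5, KDR and FLT1 were lowest of the 6 cows there, and EMCN, ERG, CLDN5, ESAM and EGFL7 highest. VWF, TEK and TIE1 lay within the LF/LCL range in that cow, as NOS3 did. In the fit of all 6 libraries 1 of the 11, CDH5, had an unadjusted p-value under 0.05, and it was higher in LF/LCL. Without cow 489215, where NOS3 passed the adjusted threshold, 3 of the 11 did so too, all higher in LF/LCL. Ciliated cell markers, 7 of 8 in the fit, summed to 27812 to 35331 in LF/LCL, 46302 and 50812 in cows 856 and 97, and 27526 in cow 489215. The most abundant, CAPS, did not separate the cows, at 16551 to 21404. With all 6 libraries 2 of the 7 had an unadjusted p-value under 0.05, DNAI1 and CCDC39, both higher in SF/SCL. Cow 489215 was above every LF/LCL cow for these genes, unlike for EDNRB and ECE1, and below every LF/LCL cow for FOXJ1, DNAH5 and TEKT1. Without cow 489215, where EDNRB and ECE1 passed the adjusted threshold, 6 of the 7 passed it as well, all higher in SF/SCL.

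Secretory and general epithelial markers summed to 29186 to 41088 in LF/LCL, 319799 and 378515 in cows 856 and 97, and 65042 in cow 489215. OVGP1, which was not in the fit, made up most of the sum in cows 856 and 97, at 271794 and 325158, but not in cow 489215, at 730, or in LF/LCL, at 287 to 1950. Of the 8 in the fit, 5 had an unadjusted p-value under 0.05, all higher in SF/SCL, and without cow 489215 3 passed the adjusted threshold, higher in SF/SCL. ELF3 of this list went the other way, with a log2 fold change of -0.54, and -1.09 without cow 489215. Macrophage sums overlapped, at 1068 to 2581 and 863 to 2282, with 0 of 6 genes under 0.05 and 0 past the adjusted threshold without cow 489215. The mesothelial sum was 2469 to 3346 in LF/LCL and 3512 to 26909 in SF/SCL, carried by MSLN and WT1, with 0 of its 5 genes in the fit. LRRN4 of the same list went the other way, at 175 to 412 in LF/LCL and 3.80 to 16.3 in SF/SCL, and UPK3B and UPK1B overlapped between the groups. The Schwann cell sum, 3199.8 to 5695 and 9134 to 32407, was carried by S100B, which was higher in SF/SCL at an unadjusted p-value under 0.05. The part of these cells in the values of EDNRB, ECE1 and NOS3 was not tested.

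The genes that act with endothelins and nitric oxide were taken from 5 lists. Of the 69 genes, 61 rows were in the fit, with DYNLL1 standing under several identifiers between which reads could have been divided. The adjusted threshold in limma was passed by 0. Unadjusted p-values were below 0.05 for 16 rows (26.2%, against 8.66% of all genes tested), 11 with higher values in LF/LCL (18.03%, against 4.48%) and 5 in SF/SCL (8.20%, against 4.19%). Their median log2 fold change was -0.27, and that of all genes tested was -0.02. The number under 0.05 fell to 8 without LF/LCL cow 79 or 527, where 3.94% and 4.32% of all genes were under 0.05, and it was 32 without cow 489215, where it was 33.9%. The lists were chosen with earlier results of these data known, so a share above that of all genes is not independent evidence.

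**Figure D4:**
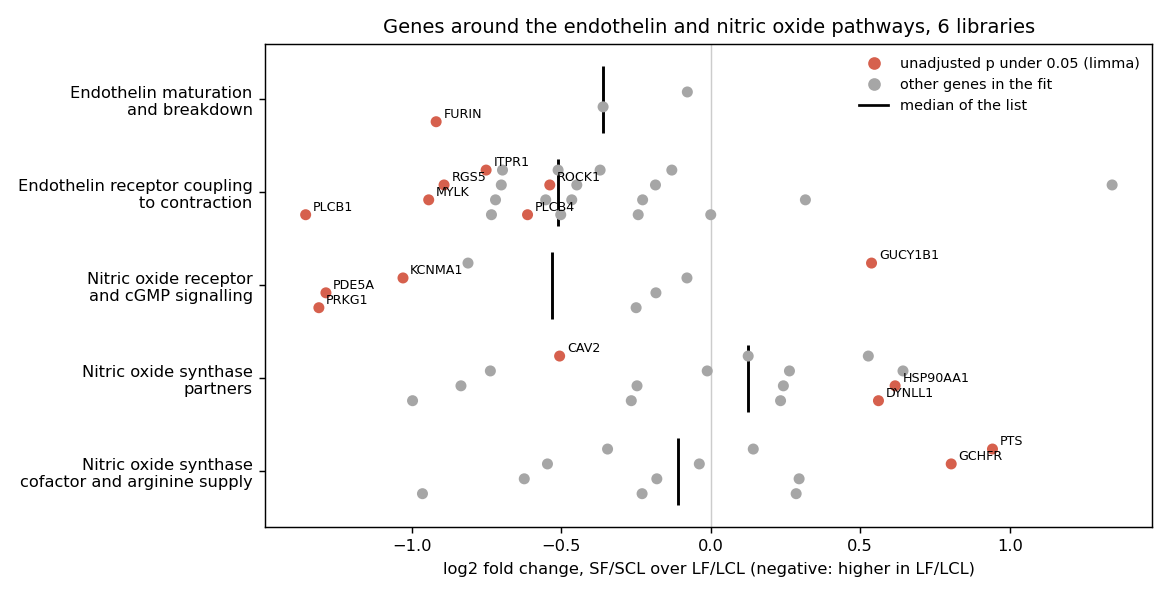
Log2 fold change (x axis, SF/SCL over LF/LCL, 6 libraries) of the genes in the 5 lists (y axis, 1 dot per row of the table), red where the unadjusted p-value from limma was under 0.05, with a black line at each median. The red dots of the lists for maturation, receptor coupling and cyclic GMP lie left of 0, except GUCY1B1 at 0.54, and those of the cofactor list lie right of it.

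In the list of endothelin receptor coupling to contraction, 6 of 23 genes in the fit had an unadjusted p-value under 0.05, and all 6 were higher in LF/LCL (median of the list -0.51, and -0.23 without cow 489215). They were PLCB1 and PLCB4, phospholipases C activated by Gq, ITPR1, the calcium release channel, MYLK, the myosin light chain kinase, ROCK1, the kinase downstream of RhoA, and RGS5, which limits Gq signalling in mural cells. MYLK had 77617 ± 3043 in LF/LCL against 40654 ± 6301 in SF/SCL (SD, n = 3 each), giving a log2 fold change of -0.94. PLCB1 had 788 ± 65.5 against 316 ± 87.2 (SD, n = 3 each), giving a log2 fold change of -1.35. ITPR1 had a log2 fold change of -0.75, RGS5 of -0.89, PLCB4 of -0.61 and ROCK1 of -0.54. The adjusted p-values of these 6 from limma ran from 0.367 for PLCB1 to 0.507 for PLCB4 and ROCK1. Without cow 489215 the list split in direction at the adjusted threshold, with 5 genes higher in LF/LCL, namely these 6 without PLCB4, and 3 lower there, ITPR2, ITPR3 and ARHGEF12. MYLK then had -1.07, PLCB1 -1.10, ITPR1 -0.79, RGS5 -1.02, PLCB4 -0.47 and ROCK1 -0.37. ITPR3, another calcium release channel, was at 956 to 1273 in LF/LCL, 4880.3 and 6741 in cows 856 and 97 and 728 in cow 489215, and its log2 fold change of 1.34 (limma adjusted p = 0.736) was 2.33 without cow 489215 (limma adjusted p = 0.00216). RHOA itself had a log2 fold change of 0.00 (SE 0.26), and -0.25 without cow 489215 (limma adjusted p = 0.167). Its highest value, 13399, was in that cow.

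In the list of the nitric oxide receptor and cyclic GMP signalling, 3 of 8 genes in the fit had an unadjusted p-value under 0.05 higher in LF/LCL and 1 lower there (median -0.53, and -0.65 without cow 489215). KCNMA1, the large-conductance potassium channel that PRKG1 opens, had 6353 ± 413 in LF/LCL against 3146 ± 577 in SF/SCL (SD, n = 3 each), giving a log2 fold change of -1.03 (limma adjusted p = 0.367). PDE5A, which breaks down cyclic GMP, had a log2 fold change of -1.29, and PRKG1 of -1.31. Without cow 489215 KCNMA1, PDE5A and PRKG1 had -0.87, -0.90 and -0.81, all past the adjusted threshold in limma. The exception was GUCY1B1, the beta subunit of soluble guanylate cyclase, at 2638 ± 172 against 3832 ± 272 (SD, n = 3 each), giving a log2 fold change of 0.54 (limma adjusted p = 0.42), and 0.51 without cow 489215 (limma adjusted p = 0.021). Cow 489215 had 3965 for GUCY1B1, in the range of the other SF/SCL cows, while GUCY1A1, the alpha subunit, was at 2232 to 3146 in LF/LCL, 3335 and 3244 in cows 856 and 97 and 1001 in cow 489215. MRVI1, a target of PRKG1 on the calcium store, had a log2 fold change of -0.81 and VASP, another target, of -0.08, which were -1.38 and -0.48 without cow 489215. Without cow 489215, 4 genes of this list passed the adjusted threshold higher in LF/LCL and 2 lower there.

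Of the synthase partners, 15 rows were in the fit, with 1 at an unadjusted p-value under 0.05 higher in LF/LCL and 2 lower there (median 0.13, and -0.08 without cow 489215). CAV2 had a log2 fold change of -0.51, and -0.48 without cow 489215. HSP90AA1, the chaperone that activates NOS3, had 42779 ± 2833 in LF/LCL against 65502 ± 1371 in SF/SCL (SD, n = 3 each), giving a log2 fold change of 0.62 (limma adjusted p = 0.455), and 0.60 without cow 489215 (limma adjusted p = 0.0102). DYNLL1, a NOS1-binding dynein light chain, had 0.56 in its most abundant row, and the related DYNLL2 had 0.24, against 0.44 and 0.10 without cow 489215. In that fit 2 rows of the list passed the adjusted threshold higher in LF/LCL and 3 in SF/SCL. CAV1, the caveolin that holds NOS3 inactive, was at 45632 to 58160 in LF/LCL, 20554 and 20936 in cows 856 and 97 and 71486 in cow 489215. The highest and the lowest values of CAV1 thus lay within the SF/SCL group, and its log2 fold change of -0.74 (limma adjusted p = 0.78) was -1.33 without cow 489215 (limma adjusted p = 0.00251).

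In the list of cofactor and arginine supply, 0 of 12 genes in the fit had an unadjusted p-value under 0.05 higher in LF/LCL and 2 lower there (median -0.11, and -0.14 without cow 489215). PTS, an enzyme of tetrahydrobiopterin synthesis, had 214 ± 32.0 in LF/LCL against 431 ± 159 in SF/SCL (SD, n = 3 each), giving a log2 fold change of 0.94. GCHFR, the feedback regulator of GCH1, had 421 ± 98.8 against 727 ± 99.5 (SD, n = 3 each), giving a log2 fold change of 0.80. Without cow 489215 PTS had 0.69 and GCHFR 0.70, with limma adjusted p-values of 0.129 and 0.0691. GCH1, the first enzyme of that route, had a log2 fold change of -0.23 (SE 0.27). The more abundant genes of the list, QDPR, SPR and ASS1, had 0.29, 0.30 and -0.18. Without cow 489215 they had -0.15, 0.42 and -0.92, and ASS1 was the gene of the list past the adjusted threshold (limma adjusted p = 0.0226).

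In the list of endothelin maturation and breakdown, 1 of 3 genes in the fit had an unadjusted p-value under 0.05, higher in LF/LCL (median -0.36, and -0.50 without cow 489215). This was FURIN, which cuts the precursor before ECE1, at 3179.8 ± 315 in LF/LCL against 1809 ± 760 in SF/SCL (SD, n = 3 each), giving a log2 fold change of -0.92 (limma adjusted p = 0.555). Without cow 489215, which had the lowest value, it was smaller, -0.50, and passed the adjusted threshold (limma adjusted p = 0.0252). ECE2 and PCSK7 had -0.08 and -0.36, and -0.05 and -0.67 without that cow. MME, or neprilysin, a membrane peptidase that degrades endothelin, did not pass the filter because its SD over the libraries, 3396, was above its mean, 3267. It had normalized counts of 789, 842 and 1297 in LF/LCL cows 617, 79 and 527, and of 8768, 1652 and 6252 in SF/SCL cows 856, 489215 and 97. The groups did not overlap, and with the filter on the mean alone its log2 fold change was 2.24 (SE 0.62, limma adjusted p = 0.415).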

How the data were processed

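RNA-seq was analysed in the isthmus of 6 cows, 3 per group, grouped by the sample titles. The authors quality-filtered the read pairs, mapped them to a repeat-masked Bos taurus genome (UMD3.1) by TopHat2 2.0.8 and Bowtie2 2.1.0, counted reads per gene with HTSeq 0.5.4p2 and divided by DESeq 1.12.1 size factors. The strand setting is not given in the sources used here. The deposited values are this normalized signal. They were whole multiples of 1 step per library, so reads were recovered for 100% of values (within 0.01 read). Here limma 3.58.1 (R 4.3.3; trend and robust) was fitted to log2(value + 1) of genes with a mean above 5 and above the SD, after the study's filter, without covariates, with Benjamini-Hochberg adjustment and a threshold of 0.05. Alternatives were TMM rescaling, edgeR 4.0.16 and DESeq2 1.42.0 on recovered reads, pseudocounts of 0.5 and 5, other filters and leaving out each cow. The fits were tested on simulated counts. Each cow is a separate animal. Genes named are the symbols chosen, the nearest 3 profiles of each, and, per list, those under 0.05 unadjusted with up to 3 of the highest mean. ITPR2, ITPR3, ARHGEF12, GUCY1A1, GCH1, MME and the single marker genes were named after their values were seen. Genes and lists were chosen with earlier results of these data known. The table's symbols were used as given. Plots were made with Python 3.11.15 and matplotlib 3.10.9.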

Additional observations from a re-analysis of the deposited data

How the results depend on the processing

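Of 112 fold changes of single genes under alternatives, 101 kept their direction and their side of the adjusted threshold. The other 11 comprised 5 that passed the threshold, 4 without cow 489215 (EDNRA, NOS3, EDNRB and ECE1) and EDNRA by DESeq2, and 6 that reversed with a cow left out. EDN1 (-0.16) and NOS1 (0.24) reversed without cow 489215, EDNRB (-0.046) without cow 97, and ECE1 without cow 617 (-0.028), 856 (-0.28) or 97 (-0.22). With a cow left out the log2 fold change ran from -0.16 to 0.24 for EDN1, from -1.40 to -0.42 for EDN2, from -1.04 to -0.0014 for EDN3, from -0.046 to 0.87 for EDNRB, from -0.28 to 0.71 for ECE1 and from -2.07 to 0.24 for NOS1. On recovered reads, edgeR and DESeq2 moved NOS1 from -1.02 to between -0.23 and -0.21, ECE1 from 0.07 to between 0.28 and 0.30, EDNRB from 0.29 to between 0.46 and 0.48, and EDN3 from -0.50 to between -0.35 and -0.32. Leaving out each cow, the count of the 8 genes past the adjusted threshold ran from 0 to 4, that under an unadjusted 0.05 from 1 to 5, that of pathway genes under an unadjusted 0.05 from 8 to 32, and that of all genes from 0 to 2827, with the highest value in each case without cow 489215. DESeq2 called 416 of all genes and 1 of the 8, EDNRA, where limma called 0. The EDNRA to EDNRB log2 ratio kept its direction throughout, from -2.18 to -0.93 with a cow left out. The causes were not tested. No paired analysis was possible because the cows of the groups share no number. The 6 to 27 reads of EDN2 per library limit what can be seen for that gene.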
